A study of Homo sapiens with 13 samples.

Results

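The regions described here carry the promoter mark H3K4me3 over less than 3000 bp and the activity mark H3K27ac in the same place. Peaks of both replicates were merged for each mark, and a region was kept where each replicate had a peak in it, on chromosomes 1 to 22 and X. This gave 15638 H3K4me3 regions, of which 8366 (53.5%) were under 3000 bp wide and overlapped an H3K27ac region by 1 bp or more. These 8366 narrow acetylated regions were chosen by measured peaks of both marks. Their width, their H3K4me3 in both replicates and their overlap with a reproducible H3K27ac region are thus set by the choice. An H3K27ac region may reach beyond the H3K4me3 region, and 8355 of the 8366 overlapped an H3K27ac peak of both libraries. The other H3K4me3 regions were 1232 broad acetylated regions of 3000 bp or more (7.88%) and 6040 regions without a reproducible H3K27ac region (38.6%).

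The cells were PANC1, a long-established line grown from a human pancreatic duct tumour, in a stable derivative that expresses BRG1 (labelled PANC1-BRG oe). Antibodies to BRG1, SMARCC1, NRF2, H3K4me1, H3K4me3 and H3K27ac were used in 2 CUT&RUN libraries each. CUT&RUN cuts and sequences the DNA beside an antibody-bound protein. The cells were mildly crosslinked, and no cells without the BRG1 construct are in the comparison, so nothing here separates an effect of BRG1 expression. The labels do not say whether the replicates were separate cultures, so the spread between them may be technical.

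H3K4me3 is laid down around active or poised transcription starts, on the nucleosomes that flank the start, and H3K27ac is added there and at enhancers when they are active. H3K4me1 usually covers enhancers and the flanks of promoters. BRG1, encoded by SMARCA4, is an ATPase motor of the BAF and PBAF remodelling complexes that slide or evict nucleosomes, and SMARCC1 is a scaffold subunit of the same complexes. NRF2, encoded by NFE2L2, binds antioxidant response elements and switches on antioxidant and detoxification genes.

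A set of 8 promoters show what these regions look like in sequence. They were picked after their values were seen: the 2 narrow acetylated promoters with the highest H3K4me3 fold (ZNF264, UBL5), and for each factor the 2 whose reproducible site was best ranked among sites that covered at least 100 bases of the promoter window. Each window is RefSeq sequence of GRCh38.p14 from 250 bases before to 50 bases after the start, 5′ to 3′ on the gene's strand, so that 250 bases precede the start. Capitals mark matches, on either strand, to the 11 short motifs searched, described further on. ZNF264 is at chr19:57191250-57191549 on the plus strand, UBL5 at chr19:9827668-9827967 on the plus strand, SLC2A1 at chr1:42958819-42959118 on the minus strand and LIPH at chr3:185552539-185552838 on the minus strand. EXOC7 is at chr17:76103738-76104037 on the minus strand, TPCN2 at chr11:69048682-69048981 on the plus strand, FNTB at chr14:64986645-64986944 on the plus strand and LTA4H at chr12:96035538-96035837 on the minus strand.
ZNF264: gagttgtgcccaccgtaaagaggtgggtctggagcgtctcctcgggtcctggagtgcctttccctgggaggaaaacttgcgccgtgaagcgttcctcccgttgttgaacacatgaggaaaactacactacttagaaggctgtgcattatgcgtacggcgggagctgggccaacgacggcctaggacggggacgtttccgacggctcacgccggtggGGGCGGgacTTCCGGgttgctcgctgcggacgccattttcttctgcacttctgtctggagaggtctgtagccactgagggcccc
UBL5: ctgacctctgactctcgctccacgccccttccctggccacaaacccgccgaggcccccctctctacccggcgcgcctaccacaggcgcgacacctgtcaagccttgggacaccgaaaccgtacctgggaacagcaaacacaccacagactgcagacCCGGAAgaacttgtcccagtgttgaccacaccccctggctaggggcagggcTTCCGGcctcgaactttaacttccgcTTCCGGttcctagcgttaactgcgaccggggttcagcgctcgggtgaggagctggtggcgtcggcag
SLC2A1: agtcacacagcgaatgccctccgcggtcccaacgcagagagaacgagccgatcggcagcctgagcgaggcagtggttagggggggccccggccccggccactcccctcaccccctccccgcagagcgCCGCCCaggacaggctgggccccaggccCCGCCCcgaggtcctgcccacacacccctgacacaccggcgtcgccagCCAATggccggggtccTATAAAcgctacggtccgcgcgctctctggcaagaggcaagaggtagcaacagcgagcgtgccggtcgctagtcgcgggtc
LIPH: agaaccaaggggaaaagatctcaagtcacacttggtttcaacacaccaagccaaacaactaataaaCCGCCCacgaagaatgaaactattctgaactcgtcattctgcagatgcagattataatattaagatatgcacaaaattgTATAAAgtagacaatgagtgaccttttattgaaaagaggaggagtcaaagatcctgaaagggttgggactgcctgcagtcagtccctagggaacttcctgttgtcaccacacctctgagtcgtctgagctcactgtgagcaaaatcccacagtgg
EXOC7: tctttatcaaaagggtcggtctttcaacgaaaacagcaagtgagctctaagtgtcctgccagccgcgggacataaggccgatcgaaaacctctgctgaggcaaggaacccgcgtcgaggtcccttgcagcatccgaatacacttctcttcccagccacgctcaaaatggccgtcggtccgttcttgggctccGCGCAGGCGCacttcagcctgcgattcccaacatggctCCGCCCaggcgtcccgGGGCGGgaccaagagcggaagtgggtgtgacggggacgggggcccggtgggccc
TPCN2: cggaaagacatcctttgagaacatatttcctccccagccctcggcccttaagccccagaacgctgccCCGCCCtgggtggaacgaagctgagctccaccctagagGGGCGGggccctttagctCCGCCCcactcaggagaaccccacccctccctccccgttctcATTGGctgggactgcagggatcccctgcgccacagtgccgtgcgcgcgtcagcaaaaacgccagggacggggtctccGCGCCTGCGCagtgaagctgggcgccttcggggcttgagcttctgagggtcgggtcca
FNTB: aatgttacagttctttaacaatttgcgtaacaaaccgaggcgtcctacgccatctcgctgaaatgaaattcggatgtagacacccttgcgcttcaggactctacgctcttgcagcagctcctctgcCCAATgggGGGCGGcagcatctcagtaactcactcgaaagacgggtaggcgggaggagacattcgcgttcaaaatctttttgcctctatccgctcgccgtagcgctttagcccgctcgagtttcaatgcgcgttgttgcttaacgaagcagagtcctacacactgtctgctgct
LTA4H: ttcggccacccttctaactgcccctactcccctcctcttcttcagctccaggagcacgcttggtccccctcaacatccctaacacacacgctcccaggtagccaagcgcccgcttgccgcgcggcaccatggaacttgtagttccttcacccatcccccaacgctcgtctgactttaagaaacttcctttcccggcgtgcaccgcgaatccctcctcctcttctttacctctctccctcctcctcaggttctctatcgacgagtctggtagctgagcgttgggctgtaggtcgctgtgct
ZNF264 and UBL5 hold matches to the ETS core CCGGAA, 1 in ZNF264 and 3 in UBL5. SLC2A1, which encodes the glucose transporter GLUT1, holds TATAAA beginning 31 bases before the start and a CCAAT box beginning 47 bases before it. EXOC7 and TPCN2, the promoters with a SMARCC1 site, each hold a match to the NRF1 motif and at least 2 GC boxes. The LTA4H window holds no match to any of the 11, and neither window with an NRF2 site holds the antioxidant element searched.

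In H3K4me3 strength, narrow acetylated regions lay between the broad and the unacetylated ones. Their median H3K4me3 fold enrichment, the authors' value for the highest peak of a library in the region, was 14.9 in replicate 1 and 15.5 in replicate 2. In broad acetylated regions it was 23.4 and 23.6, and in unacetylated regions 5.72 and 5.93. The quartiles of narrow acetylated regions were 8.93 and 21.3 in replicate 1. Median H3K27ac fold was 4.26 and 4.29 in narrow acetylated regions and 4.92 and 4.95 in broad ones. The highest H3K4me3 fold in narrow acetylated regions was 64.1 in replicate 1 and 63.9 in replicate 2, and the lowest in replicate 2 was 1.38. Across the 8366 regions, the 2 H3K4me3 replicates ranked regions alike (Spearman's rho 0.907), and the 2 H3K27ac replicates less closely (rho 0.660 over 8355 regions with a peak of both libraries). Mean H3K4me3 fold and mean H3K27ac fold had a rho of 0.417. These correlations are across regions, which share libraries and are not independent replicates. H3K4me3 fold also went with width (rho 0.612), and H3K27ac fold did so less (rho 0.277). Width was 1648.5 bp at the median, with quartiles of 1124 and 2171 bp, and the regions covered 13.8 Mb in all.

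The libraries differed in peak number and in peak confidence. The H3K4me3 libraries had 18789 and 17752 peaks and the H3K27ac libraries 32499 and 32294. The factor libraries had fewer, with 3213 and 6610 peaks for BRG1, 600 and 572 for SMARCC1 and 1538 and 919 for NRF2. Of the BRG1 peaks 75.3% and 43.0% had a deposited −log10 q of 0, and of the NRF2 peaks 54.9% and 62.8%.

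**Figure D1:**
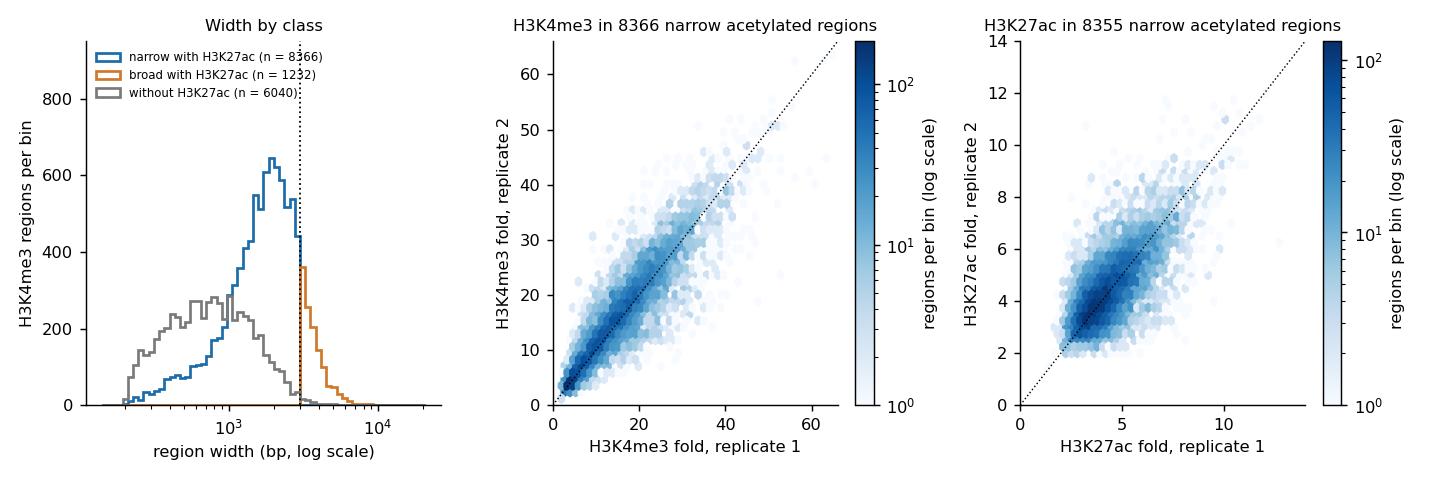
Left, widths (bp, log scale) of H3K4me3 regions in the 3 classes, with a dotted line at 3000 bp. Centre and right, fold enrichment of H3K4me3 and H3K27ac in each narrow acetylated region, replicate 1 against replicate 2, shaded by number of regions, with the dotted line of equality: H3K4me3 spans up to 64.1 and H3K27ac up to 12.9, and the H3K27ac cloud is wider relative to its range.

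H3K27ac filled only part of most narrow acetylated regions. It covered a median of 55.1% of a region's bases, with quartiles of 37.9% and 73.7%, and 367 regions were covered whole. In 2002 regions (23.9%) at least 2 separate H3K27ac regions lay in or across the H3K4me3 region, against 905 of 1232 broad ones (73.5%). Median width was 1648.5 bp in narrow and 3524 bp in broad acetylated regions, and its part in this difference was not tested.

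The strongest H3K4me3 in the class was at ZNF264 (chr19:57191137-57193188, 2052 bp), which encodes a zinc finger protein. Its H3K4me3 fold was 64.1 and 63.9, and its H3K27ac fold 5.40 and 5.73. UBL5, a ubiquitin-like protein of pre-mRNA splicing, followed with 63.2 and 62.8 (chr19:9826577-9829143). The others of the 10 best-ranked were at MOGS, SFSWAP, RAB5IF, SUMO2, ARPC2, TALDO1, CLPX and MMD, with mean folds between 50.6 and 59.1. Their products trim glycans (MOGS), modify proteins (SUMO2), branch actin (ARPC2), run the pentose phosphate pathway (TALDO1) and unfold mitochondrial proteins (CLPX). None of these 10 regions held a reproducible site of a factor, where over all H3K4me3 regions 0.716% held a BRG1 site, 0.352% a SMARCC1 site and 0.953% an NRF2 site. H3K27ac differed between their replicates most at CLPX, with a fold of 3.33 and 10.7, and at SUMO2, with 3.42 and 6.87.

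The strongest H3K27ac was at ZUP1, a deubiquitinase gene (chr6:116667416-116668954), with a fold of 12.04 and 11.95 and an H3K4me3 fold of 40.7 and 36.8. BAK1, a pore-forming gene of apoptosis, had an H3K27ac fold of 10.8 and 11.3, and its H3K4me3 fold was 52.6 and 23.3, a wide gap between replicates. RC3H1, SBF2, PTS, CPSF6, ATP2C1, YTHDF3, PDXDC1 and the region shared by TONSL and VPS28 completed the 10 best-ranked, with mean H3K27ac folds of 10.5 to 11.3. Of these 10 regions, ZUP1 and PTS held a SMARCC1 site, and CPSF6 and ATP2C1 a BRG1 site. Over all H3K4me3 regions 0.352% held a SMARCC1 site and 0.716% a BRG1 site. In the highest of 5 equal groups of narrow acetylated regions by H3K27ac fold, the shares were 2.33% and 2.45%. CPSF6 directs alternative polyadenylation, ATP2C1 pumps calcium and manganese into the Golgi, and PTS makes tetrahydrobiopterin.

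The width limit fell inside a continuum. Just under it were regions at LRRFIP2 and SDCBP (2999 bp each), RPS3 (2998 bp), and RPS21 and CCT6A with PSPH (2997 bp each), and just over it NTN4, MACF1, DCAF7, ABHD17C and TGIF2 (3002 bp each). H3K4me3 fold in those just under was 13.6 and 19.1 at LRRFIP2, 10.6 and 14.7 at SDCBP, 41.4 and 44.1 at RPS3, 15.6 and 33.5 at RPS21 and 16.3 and 23.5 at CCT6A and PSPH. Those just over ranged from 14.1 at TGIF2 to 28.7 at NTN4 in replicate 1, so both sides overlapped. At the other end, the 5 narrowest regions, at or near ACACB, LOC124905135, HEATR5A, SOCS5 and TBC1D5, were 201 to 217 bp wide, with mean H3K4me3 folds of 2.65 to 5.19.

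Most narrow acetylated regions lay at starts of protein-coding genes. The start table used here has no entries on chromosome 8, and off it lists starts for 15812 of 19259 coding genes, so a region without a listed start may still lie at a start. Of 8129 regions off chromosome 8, 5196 (63.9%) held a coding start. The share was 81.8% of broad acetylated regions and 33.1% of unacetylated ones. Starts on both strands, so that transcription can leave in both directions, were found in 441 of the 5196 (8.49%), against 21.1% of broad and 4.63% of unacetylated regions with a coding start. A further 311 narrow acetylated regions held only a start of a long noncoding RNA, and 2622 held no listed start. Of the 2622, 1648 had the end of a coding gene within 1000 bp, 526 lay inside a coding gene away from its ends, and 448 lay outside coding genes. The share with a coding start went up with H3K4me3 fold: in 5 equal groups from low to high it was 24.0%, 59.6%, 76.4%, 79.7% and 80.1%.

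Regions without a listed start were narrower and weaker in H3K4me3, and less so in H3K27ac. The 526 regions inside genes had a median width of 778 bp, against 1864 bp at coding starts. Their median H3K4me3 fold was 5.85 and 5.73, against 17.3 and 17.8 at coding starts, while median H3K27ac fold was 4.09 and 4.14, against 4.36 and 4.44. H3K27ac covered a median of 78.9% of the regions inside genes and 52.1% of those at coding starts. H3K4me1 regions were found in 6.84% of the regions inside genes, in 3.85% of those at coding starts and in 3.43% of all H3K4me3 regions.

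Both marks sat downstream of the start. In 3929 narrow acetylated regions with exactly 1 listed coding start, the H3K4me3 summit lay a median of 416 bp downstream in replicate 1 and 376 bp in replicate 2, and it was downstream in 94.1% and 94.4%. The H3K27ac summit lay 350.5 and 327 bp downstream at the median, and downstream in 85.1% and 85.0%. At 300 bp downstream, reproducible H3K4me3 regions covered 98.8% and H3K27ac regions 74.3% of these starts, and at 300 bp upstream 63.6% and 29.4%. At the start itself, H3K27ac covered 43.7%. These starts were taken because they lie in a region, so the coverage of H3K4me3 at the start is set by the choice.

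**Figure D2:**
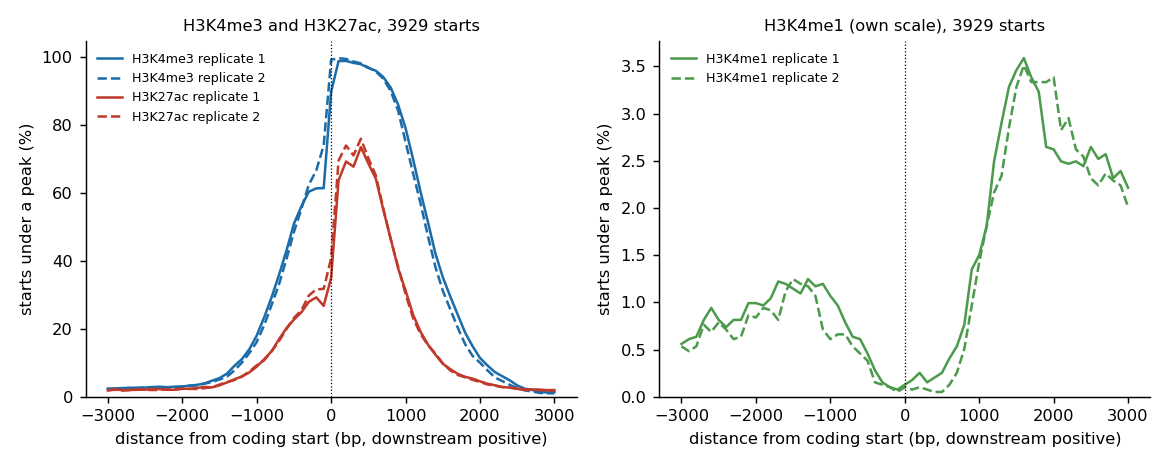
Share of 3929 coding starts (%) under a peak of each library, by distance from the start (bp, downstream positive); solid lines are replicate 1 and dashed lines replicate 2. H3K4me3 and H3K27ac (left) are higher downstream than upstream of the start in both replicates, and H3K4me1 (right, own scale) is near 0 around the start and highest 1600 bp downstream in both replicates.

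H3K4me1 was rare within narrow acetylated regions and lay at their edges. A reproducible H3K4me1 region overlapped 320 of 8366 (3.83%; exact binomial 95% interval 3.42 to 4.26), against 5.52% of broad, 2.45% of unacetylated and 3.43% of all H3K4me3 regions, so the share was near that of all regions. The 2 libraries' own shares were 5.96% and 5.20%. Of 327 H3K4me1 regions at these regions, 251 (76.8%) crossed the edge and 306 (93.6%) lay in the outer part, nearer to an edge than to the centre. Within 1000 bp, 9.23% of narrow acetylated regions had an H3K4me1 region, against 10.3% of broad and 5.46% of unacetylated ones. Where a peak fell in a region with 1 coding start, the H3K4me1 summit lay 1281 and 1343 bp downstream of it at the median.

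Remodeller and NRF2 sites were found in few of these regions. Peaks were called library by library and read depth is not known, so a region without a site may hold binding that these lists do not show.

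BRG1 sites lay in 79 narrow acetylated regions (0.944%; exact binomial 95% interval 0.748 to 1.18). The share was 2.35% of broad acetylated regions (1.58 to 3.36), 0.0662% of unacetylated ones (0.0180 to 0.169) and 0.716% of all H3K4me3 regions. Single libraries had a peak in 2.04% and 5.30% of narrow acetylated regions, a mean of 3.67% ± 2.30 (SD, n = 2). The same libraries gave 4.46% and 15.3% of broad regions and 0.265% and 0.844% of unacetylated ones, so each library ordered the classes alike while the 2 differed by more than 2 times in level. Per Mb, narrow acetylated regions held 12.9 and 33.5 BRG1 peaks, broad ones 12.1 and 43.7, and unacetylated ones 2.93 and 9.33. With width taken into account in this way, replicate 1 was slightly higher in narrow and replicate 2 higher in broad regions.

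SMARCC1 sites lay in 54 narrow acetylated regions (0.645%; 0.485 to 0.841), in 1 broad region (0.0812%; 0.00205 to 0.451) and in 0 of 6040 unacetylated regions, which by the limit of 3 counts allows a share of up to 0.0497%. Over all H3K4me3 regions the share was 0.352%. Single libraries had a peak in 1.75% and 1.60% of narrow acetylated regions, 0.649% and 0.406% of broad and 0.0497% and 0.132% of unacetylated ones, and the classes did not overlap between libraries. Per Mb this was 11.1 and 10.2 peaks in narrow acetylated, 1.72 and 1.08 in broad and 0.549 and 1.46 in unacetylated regions. Every deposited SMARCC1 peak has a −log10 q of 0, so none passes a false discovery threshold by itself. With peaks limited to a −log10 p of at least 5, 1 narrow acetylated region held a SMARCC1 site, 8 a BRG1 site and 13 an NRF2 site. The other classes were not counted at this threshold, so these counts give no comparison between classes.

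NRF2 sites lay in 24 narrow acetylated regions (0.287%; 0.184 to 0.427), against 2 broad (0.162%) and 123 unacetylated regions (2.04%; 1.70 to 2.43). Over all H3K4me3 regions the share was 0.953%. Single libraries had a peak in 1.28% and 0.478% of narrow acetylated and in 2.90% and 2.02% of unacetylated regions, so the ranges of the 2 classes did not overlap. Transfer RNA genes moved with this: 40 narrow acetylated regions (0.478%) and 181 unacetylated ones (2.997%) lay within 1000 bp of a tRNA gene, and of 383 NRF2 sites 205 (53.5%) did. Without those sites, 9 of 8366 narrow acetylated regions (0.108%) and 9 of 6040 unacetylated ones (0.149%) held an NRF2 site, a comparison added after the values were seen.

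**Figure D3:**
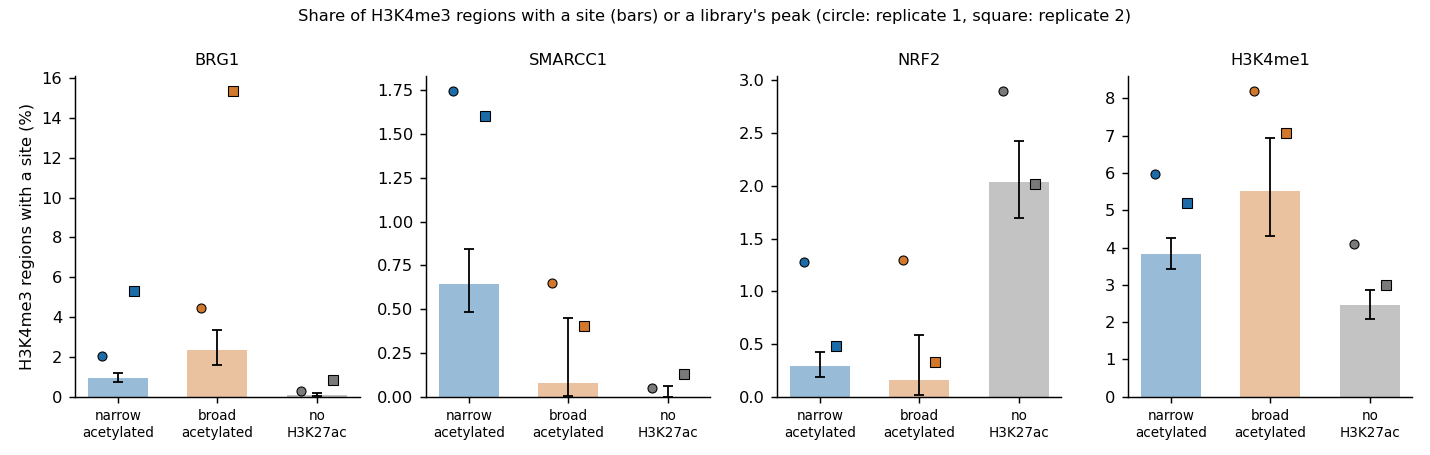
Share of H3K4me3 regions (%) with a reproducible site (bars, with exact binomial 95% intervals) and with a peak of replicate 1 (circles) or replicate 2 (squares), in narrow acetylated, broad acetylated and unacetylated regions; each panel has its own scale. SMARCC1 is highest in narrow acetylated, BRG1 in broad acetylated and NRF2 in unacetylated regions.

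Taking the 3 factors together, 8218 of 8366 narrow acetylated regions (98.2%) held no reproducible site. Sites were rare over all H3K4me3 regions too, at 0.716% for BRG1, 0.352% for SMARCC1 and 0.953% for NRF2. Combinations of factors were counted in narrow acetylated regions only, so these counts give no comparison between classes. BRG1 alone was in 71, SMARCC1 alone in 48 and NRF2 alone in 21. BRG1 and SMARCC1 met without NRF2 in 5, BRG1 and NRF2 without SMARCC1 in 2, and all 3 factors in 1.

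Seen from the factors, SMARCC1 placed the most of its peaks in narrow acetylated regions. Its libraries had 25.5% and 24.7% of their peaks there, against 5.54% and 6.97% for BRG1, a difference of 18.8 percentage points. NRF2 had 7.41% and 4.68%, so SMARCC1 was higher than NRF2 by 19.0 points. NRF2 minus BRG1 was -0.212 points, within the spread of the libraries, and its sign turned under several alternatives. Exact two-sided permutation tests over 4 libraries gave adjusted p = 0.5 for both SMARCC1 differences and 1 for NRF2 against BRG1 (3 pairs), and with 2 libraries a side p cannot go below 0.333 before adjustment. The 56 SMARCC1 sites in these regions are 33.1% of 169 SMARCC1 sites, the 78 BRG1 sites are 3.83% of 2039, and the 24 NRF2 sites are 6.27% of 383.

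Among H3K27ac regions, those at narrow acetylated H3K4me3 regions held BRG1 less often than those away from H3K4me3. Of 24239 H3K27ac regions, 10624 lay at narrow acetylated H3K4me3 regions, and 79 of them (0.744%) held a BRG1 site and 53 (0.499%) a SMARCC1 site. Another 2669 lay at broad H3K4me3 regions only, and 29 of them (1.09%) held BRG1 and 1 (0.0375%) SMARCC1. Of 4753 H3K27ac regions with H3K4me1 and no H3K4me3, the usual marks of enhancers, 308 (6.48%) held BRG1 and 71 (1.49%) SMARCC1. Of 6193 with neither H3K4 mark, 250 (4.04%) held BRG1 and 9 (0.145%) SMARCC1, so SMARCC1 was lower there.

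BRG1 and SMARCC1 sites met the acetylated part of the region. H3K27ac covered 53.1% of the bases of narrow acetylated regions, and 76 of 78 BRG1 sites (97.4%; 91.0 to 99.7) and 54 of 56 SMARCC1 sites (96.4%; 87.7 to 99.6) overlapped it. Of 24 NRF2 sites 16 did (66.7%; 44.7 to 84.4), and of 327 H3K4me1 regions 218 (66.7%; 61.3 to 71.8). Since a site has width, its chance to touch H3K27ac exceeds the covered share. A site that reached beyond the narrow acetylated region was also counted where it met H3K27ac only outside that region. By the mean summit position of both replicates alone, 70 of 76 BRG1 sites (92.1%), 53 of 55 SMARCC1 sites (96.4%), 10 of 18 NRF2 sites (55.6%) and 146 of 223 H3K4me1 regions (65.5%) with that position inside the region were in its acetylated part.

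The regions with a BRG1 or SMARCC1 site also had higher H3K27ac. Median H3K27ac fold was 6.04 and 6.55 in the 54 regions with a SMARCC1 site, against 4.25 and 4.29 in those without. With a BRG1 site it was 5.70 and 5.70, against 4.25 and 4.29. With an NRF2 site it was 4.07 and 3.998, against 4.26 and 4.29. H3K27ac covered a median of 75.2% of regions with a SMARCC1 site and 55.0% of those without. Median H3K4me3 fold was 17.9 and 18.6 with a SMARCC1 site, against 14.9 and 15.5 without, and 19.0 and 18.5 with a BRG1 site, against 14.9 and 15.5. Width differed for BRG1, at a median of 2006 bp with and 1645 bp without a site, and little for SMARCC1, at 1623 and 1649 bp. No test was made over regions, which are not replicates.

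Split into 5 equal groups by H3K27ac fold, from low to high, the narrow acetylated regions held 2, 1, 4, 8 and 39 regions with a SMARCC1 site and 7, 10, 8, 13 and 41 with a BRG1 site. NRF2 gave 6, 6, 5, 2 and 5, and H3K4me1 46, 48, 68, 67 and 91. The top group, with a mean H3K27ac fold of 5.47 or more, thus held 39 of 54 SMARCC1 and 41 of 79 BRG1 regions. In the top group SMARCC1 peaks were in 5.27% and 4.85% of regions and BRG1 peaks in 5.45% and 10.8%, each library's highest share among the 5 groups. NRF2 peaks of single libraries were also most frequent there, in 2.03% and 0.778% of regions, though reproducible NRF2 sites were not. Split by H3K4me3 fold instead, BRG1 gave 14, 12, 11, 14 and 28 and SMARCC1 9, 9, 9, 5 and 22. Width went along with these groups: its median was 1290 bp in the lowest and 1927 bp in the highest H3K27ac group, and its part in the counts was not tested.

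**Figure D4:**
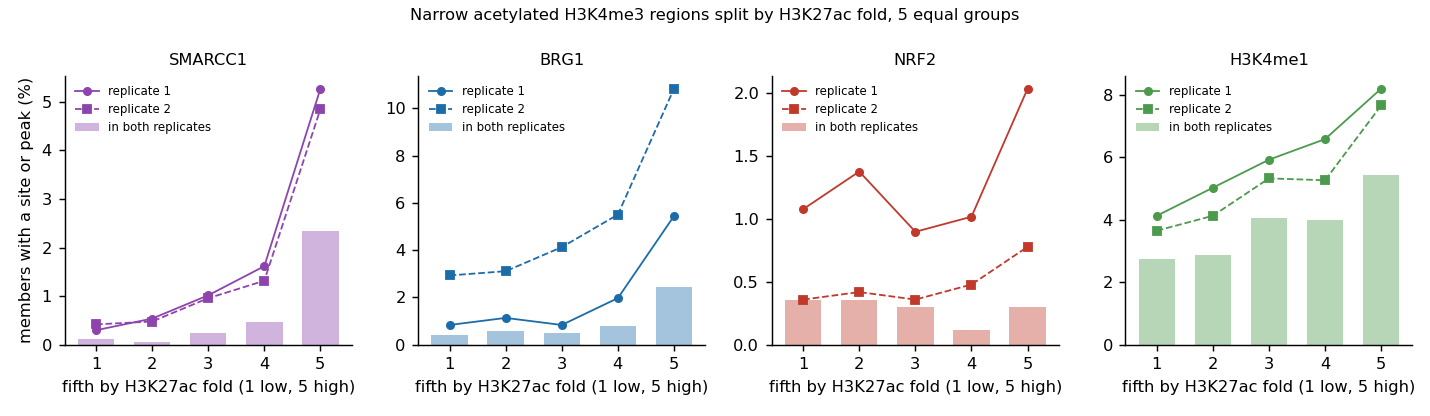
Share (%) of narrow acetylated regions with a reproducible site (bars) and with a peak of replicate 1 (circles, solid) or replicate 2 (squares, dashed), in 5 equal groups by H3K27ac fold from low to high; each panel has its own scale. SMARCC1 and BRG1 are highest in the top group in both replicates, and so are the NRF2 peaks of each replicate, while the NRF2 bars show no such order.

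Width was held alike by comparing regions of the same width range. H3K4me3 fold still differed within each range. Its median was 5.62 in narrow acetylated and 4.74 in unacetylated regions under 1000 bp, and 21.4 and 13.7 from 2500 to 3000 bp. Its part in the counts was not tested. In the 1000 to 1500 bp range, 1925 narrow acetylated regions had 12 with a BRG1 site and 11 with a SMARCC1 site, and 1185 unacetylated regions had 0 of each, which by the limit of 3 counts allows up to 0.253%. From 2000 to 2500 bp, 24 of 1611 narrow acetylated regions (1.49%) and 2 of 228 unacetylated ones (0.877%; 0.106 to 3.13) held a BRG1 site, which is not separable at these numbers. Under 1000 bp, 14 of 1636 narrow acetylated regions held BRG1 and 12 SMARCC1, against 0 of 3977 unacetylated ones (up to 0.0754%). From 1500 to 2000 bp, BRG1 was in 12 of 2076 (0.299% to 1.01%) and 1 of 520 (0.00487% to 1.07%), also not separable. From 2500 to 3000 bp, BRG1 was in 17 of 1118 and 0 of 79 (up to 3.80%). In the ranges from 1500 bp up, SMARCC1 was in 17, 10 and 4 narrow acetylated and 0 unacetylated regions, not separable in any. Under 1000 bp an NRF2 site was in 5 of 1636 narrow acetylated (0.306%) and 96 of 3977 unacetylated regions (2.41%), and from 1000 to 1500 bp in 10 (0.519%) and 23 (1.94%). From 1500 to 2000 bp it was in 0 of 2076 (up to 0.145%) and 3 of 520 (0.577%; 0.119 to 1.68), which is not separable. From 2000 to 2500 bp it was in 6 (0.372%) and 1 (0.439%), and from 2500 to 3000 bp in 3 of 1118 (0.268%) and 0 of 79 (up to 3.80%). The NRF2 share was thus lower in narrow acetylated regions under 1500 bp, and above that the numbers separate nothing. Without sites near tRNA genes the shares over all widths were 0.108% and 0.149%, not split by width.

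BRG1 sites in these regions had folds of 2.05 to 5.34 in replicate 1 and 2.41 to 7.03 in replicate 2. The best-ranked was at PRDM4, a zinc finger gene (chr12:107759010-107761952), where BRG1 had a fold of 5.34 and 5.44. Its summits lay 1404 and 1408 bp downstream of the start, and the H3K4me3 fold was 29.7 and 30.2. At SLC2A1 the BRG1 fold was 4.54 and 4.47, with summits at -221 and -274 bp from the start. At LIPH, a phospholipase gene, it was 4.54 and 4.50 in a region of only 433 bp, with weak H3K4me3 (4.28 and 4.59), H3K27ac of 5.51 and 5.49 and summits 58 and 41 bp downstream. The others of the 8 best-ranked were at KHDRBS3, ZFAND1, SOCS2 (inside the gene), SLFN12 and the noncoding RNA FLJ46875, whose nearest coding gene is NR4A2, 8212 bp away. SOCS2, an inhibitor of cytokine signalling, had a BRG1 fold of 4.66 and 4.82.

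SMARCC1 folds in these regions ran from 2.52 to 4.67 in replicate 1 and 2.46 to 4.98 in replicate 2. The best-ranked site was inside NDUFAF6, an assembly factor of mitochondrial complex I, with 4.43 and 4.98. That region is on chromosome 8, where no starts are listed, so it may still lie at a start. Its H3K4me3 fold was 24.9 and 27.4. EXOC7, a subunit of the exocyst that tethers secretory vesicles, followed with 4.05 and 4.63 and had an H3K27ac fold of 8.37 and 5.44. TPCN2, a lysosomal cation channel, had a SMARCC1 fold of 3.54 and 4.15, with summits at -95 and -49 bp from the start, inside the printed window. The others were at ZNF619, BRSK1, OAS2, TMEM268 and NDRG3. OAS2, an interferon-induced sensor of double-stranded RNA, had a SMARCC1 fold of 3.53 and 4.68 in a region of 562 bp that H3K27ac covered whole.

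NRF2 folds in these regions reached 10.1 in replicate 1 and 8.35 in replicate 2. Of the 8 best-ranked regions, 5 were within 1000 bp of a tRNA gene: at AGBL5 (9.06 and 8.35), beside TRIM7 (7.04 and 6.70), at the noncoding RNAs LINC01962 and TRIM7-AS2, which share that site, beside HMGN4 (8.08 and 5.58) and inside TRIM55 (10.1 and 4.74). H3K27ac was low in these 5 regions, at mean folds of 2.73 to 3.99. TRIM55 is on chromosome 8, where no starts are listed. The remaining 3 were at ZFAND1, nearest to EZH2 at a distance of 56304 bp, and beside MED29. Of the printed NRF2 promoters, FNTB had an NRF2 fold of 4.80 and 4.98, and LTA4H, which lies within 1000 bp of a tRNA gene, 6.48 and 4.46.

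The region at ZFAND1, a stress granule gene (chr8:81720022-81722027), was the only narrow acetylated region with reproducible sites of all 3 factors. BRG1 had a fold of 4.22 and 6.81, SMARCC1 of 3.79 and 3.42 and NRF2 of 6.504 and 5.19, over an H3K4me3 fold of 12.9 and 12.8 and an H3K27ac fold of 6.78 and 6.70. The 5 regions with BRG1 and SMARCC1 were at FAM200A, MYSM1, BMP2K, PLBD2 and VPS39. At FAM200A BRG1 was 3.92 and 4.14 and SMARCC1 averaged 3.02 ± 0.0225 (SD, n = 2), and at VPS39, an endolysosomal tethering gene, BRG1 was 2.85 and 2.90 and SMARCC1 3.34 and 3.40. Their H3K27ac means lay between 6.33 at VPS39 and 9.23 at MYSM1, all in the top H3K27ac group. BRG1 with NRF2 was found at FLJ46875 and at the shared region of ABHD13 and LIG4.

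The share of genes in this class differed between lists. Of 15812 coding genes with a listed start, 5575 (35.3%) had a start in a narrow acetylated region. A gene with starts in several classes was counted as narrow acetylated first, then broad, then unacetylated. The lists were chosen with earlier results of these data known. Proteasome genes had 21 of 26 in narrow acetylated regions, SF3 and snRNP splicing genes 20 of 25 and mitochondrial complex I genes 27 of 36. Among them, PSMD13, a lid subunit, had an H3K4me3 fold of 41.2 and 39.5, SF3B1, a branch-site recognition factor, 34.4 and 35.7, and NDUFAF5, a complex I assembly factor, 43.0 and 40.1. Within each of these 3 lists, broad acetylated regions held 1, 2 and 7 genes.

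Ribosomal protein genes divided differently: 28 of 59 were in narrow acetylated, 26 in broad acetylated and 5 in unacetylated regions, against 35.3%, 7.22% and 11.6% of all coding genes. The narrow ones were strong in H3K4me3, at a median mean fold of 25.5, against 17.9 over all 5575 genes, and had a median H3K27ac fold of 3.92, against 4.43. RPS10 had an H3K4me3 fold of 44.6 and 46.5, RPL22 37.7 and 41.1, and RPL11 60.7 and 40.5 with a SMARCC1 site. RPS3, a protein of the small subunit, had a BRG1 site with a fold of 2.89 and 3.86.

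Of BAF and PBAF subunit genes, 15 of 24 (62.5%) were narrow acetylated, 5 broad (20.8%), 2 unacetylated (8.33%) and 2 in no H3K4me3 region (8.33%). Over all coding genes the shares were 35.3%, 7.22%, 11.6% and 45.9%. SMARCA4, which encodes BRG1 itself, was narrow acetylated, with an H3K4me3 fold of 29.0 and 24.3. Its H3K27ac fold was 3.27 and 2.91 over 21.5% of its 1505 bp. SMARCE1, a DNA-binding subunit, had 24.2 and 25.2 for H3K4me3 and 8.15 and 8.41 for H3K27ac. SMARCD2 and DPF2 had H3K4me3 folds of 26.1 and 26.5 and of 22.4 and 21.7. The peaks do not say whether the endogenous gene or the construct supplies BRG1.

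Of NRF2 targets and antioxidant genes, 12 of 27 (44.4%) were narrow acetylated, 5 broad (18.5%), 4 unacetylated (14.8%) and 6 in no region (22.2%). Over all coding genes the shares were 35.3%, 7.22%, 11.6% and 45.9%. None of the 12 regions held a reproducible NRF2 site, and of 5077 narrow acetylated regions at all coding genes 9 did, so 0 of 12 is near the background. Among the 12 narrow acetylated genes, the highest H3K4me3 folds were at TALDO1 (50.3 and 53.1) and TKT (31.2 and 42.0) of the pentose phosphate pathway. GCLC (33.3 and 20.9) and GCLM (24.4 and 20.1), the 2 subunits of the enzyme that limits glutathione synthesis, came next. GCLM had H3K27ac over only 13.8% of its 2082 bp. NQO1, a quinone reductase, had an H3K4me3 fold of 13.8 and 11.7. By gene ends, ABCC1, a glutathione conjugate exporter (45.4 and 42.0), and PRDX1, a peroxide-reducing enzyme (43.4 and 30.4), which have no listed start, also had narrow acetylated regions. NFE2L2 itself was in a broad region.

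The remaining lists are read against the 35.3% of all coding genes. Genes of hypoxia and glycolysis were narrow acetylated in 11 of 20 (55.0%), with 6 broad. LDHA had an H3K4me3 fold of 38.7 and 36.0, GPI 29.6 and 45.2, HK1 30.5 and 31.4 and PGAM1 29.0 and 28.9, and SLC2A1 was the only narrow acetylated gene of the list with a BRG1 site. Aminoacyl-tRNA synthetases had 9 of 16 (56.3%), led by CARS1 (37.9 and 41.6) and RARS1 (37.9 and 39.1). Replication licensing had 10 of 23 (43.5%), with 8 unacetylated, led by ORC1 (33.2 and 23.7) and CDC6 (28.5 and 19.0). RNA polymerase II and general factors had 12 of 30 (40.0%), with GTF2F2 at 31.4 and 26.97 and a BRG1 site at TAF10. The YAP and TEAD pathway had 5 of 12 (41.7%), with AXL at 30.8 and 36.1 and H3K27ac over 98.4% of its region. AP-1 factors had 2 of 10, JUNB (27.8 and 27.6) and ATF7, and with a start within 1000 bp 4 of 10.

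**Figure D5:**
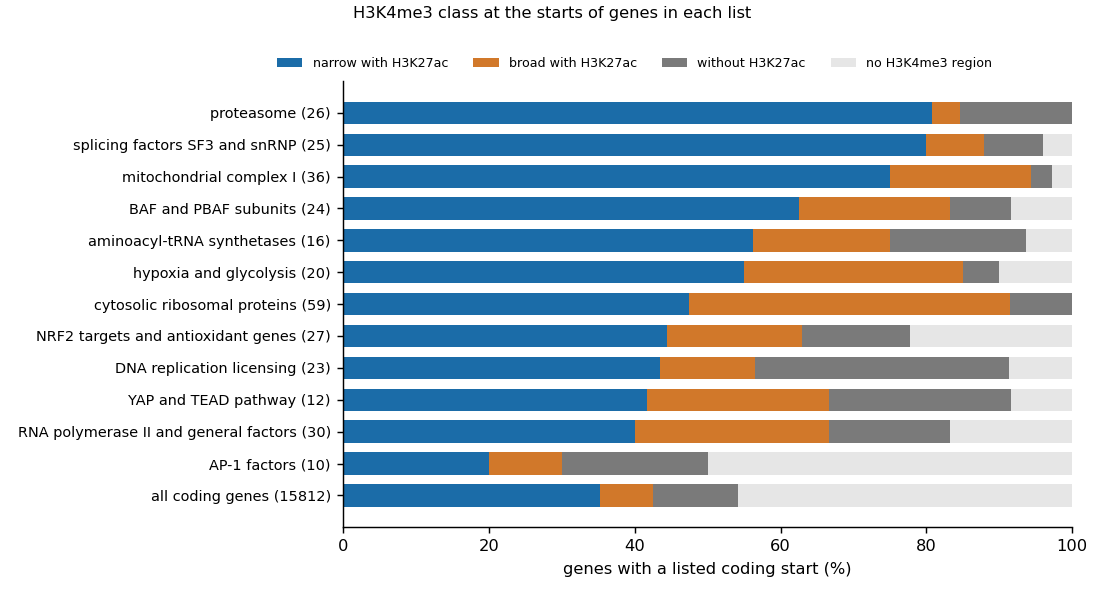
Share (%) of the genes with a listed coding start in each list (number in brackets) whose start lies in a narrow acetylated, broad acetylated or unacetylated H3K4me3 region or in none, with all coding genes at the bottom. Proteasome, splicing and complex I genes have the largest narrow acetylated shares, and ribosomal protein genes the largest broad share.

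Markers of the ductal line were only partly marked, and markers of other pancreatic cells were not. By either gene end within 1000 bp, which covers genes with no listed start, 4 ductal markers had a narrow acetylated region (KRT8 and KRT18 in the same one, KRT19 and MUC1), SOX9 and CLDN4 had a broad one, EPCAM an unacetylated one, and KRT7 and CDH1 none. KRT19 had an H3K4me3 fold of 22.5 and 25.4. Only 3 ductal markers have a listed start (KRT8, MUC1 and CLDN4). By that start 0 were narrow acetylated, 1 was broad and 2 were in no H3K4me3 region. Of 8 mesenchymal markers, ZEB1, a repressor of epithelial genes, was narrow acetylated (25.3 and 28.6), VIM, CDH2 and SNAI2 were broad, FN1 was unacetylated and COL1A1, COL1A2 and COL3A1 had none. None of 8 acinar, 6 endocrine and 4 endothelial markers had an H3K4me3 region. Of 6 leukocyte markers, CD14 had an unacetylated region and PTPRC and the other 4 had none.

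Promoter windows of these regions were rich in CpG, as in the other H3K4me3 classes. Among 22132 coding promoters of 300 bases off chromosome 8, 6892 had their start in a narrow acetylated region. Their median GC content was 67.0% and they held a median of 28 CpG, against 67.3% and 29 in broad, a median of 27 CpG in unacetylated regions, 56.3% and 8 outside H3K4me3 regions and 62.3% and 21 over all promoters. The motifs were searched on both strands as plain letters. The antioxidant element bound by NRF2 was searched as TGACNNNGC and the element bound by the AP-1 factors as TGANTCA. The GC box of SP1 was searched as GGGCGG, the ETS core as CCGGAA and the cyclic AMP element (CRE) as TGACGTCA. YY1 was searched as AAGATGG, the E-box of the MYC and USF families as CACGTG and the TEAD element as GGAATG. The TATA box was searched as TATAAA, the CCAAT box by the letters of its name, and the NRF1 motif is given by its name only. Of 3346 antioxidant element matches 110 overlapped an AP-1 match, and a match is a description of the letters, not a bound site.

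The ETS core was in 34.7% of narrow acetylated promoters, against 31.1% of broad, 26.0% of unacetylated and 21.2% of all promoters. The NRF1 motif was in 17.5%, against 15.3%, 13.6% and 10.6%. TATAAA was in 3.53%, against 6.21%, 4.89% and 9.46%, and AP-1 in 3.42%, against 3.53%, 3.07% and 6.15%. The GC box was in 74.8% and in 56.3% of all, the CCAAT box in 33.8% and 34.6%, CRE in 2.95% and 2.26%, YY1 in 8.503% and 6.05%, the E-box in 9.94% and 8.34% and TEAD in 9.45% and 12.2%. The antioxidant element was in 14.8%, against 13.8% of all. Within the class, ETS and NRF1 went along with H3K4me3 fold. In 5 equal groups from low to high, ETS was in 27.9%, 33.8%, 33.0%, 36.7% and 42.0% of promoters and NRF1 in 11.8%, 16.8%, 17.9%, 19.5% and 21.5%, while median GC content was 67.3% in the lowest and 66.3% in the highest group.

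Few promoter windows were overlapped by a factor's site. In the 27 narrow acetylated windows that a SMARCC1 site overlapped, ETS was in 17 (63.0%, against 34.7% of the class), the CCAAT box in 14 (51.9%, against 33.8%), YY1 in 8 (29.6%, against 8.503%) and the GC box in 15 (55.6%, against 74.8%). The E-box was in 22.2% of them (class 9.94%), NRF1 in 22.2% (17.5%), the antioxidant element in 11.1% (14.8%), TATAAA in 7.41% (3.53%), TEAD in 1 window (class 9.45%), and AP-1 and CRE in none. Median GC content was 60.7% in these windows and 67.0% in the class, and its part in the motif shares was not tested. In the 36 windows that a BRG1 site overlapped, ETS was in 15 (41.7%), AP-1 in 5 (13.9%, against 3.42% of the class) and the GC box in 31 (86.1%). NRF1 was in 2 (5.56%, class 17.5%), TATAAA in 4 (11.1%, class 3.53%) and CRE in 2 (5.56%, class 2.95%). The CCAAT box was in 38.9% (class 33.8%), the E-box in 13.9% (9.94%) and the antioxidant element in 13.9% (14.8%). YY1 was in 11.1% (8.503%) and TEAD in 11.1% (9.45%). In the 12 windows with an NRF2 site, 2 held the antioxidant element (16.7%), near the 14.8% of the class and the 13.8% of all promoters. Some of these windows belong to the same gene, since the 27, 36 and 12 windows come from 24, 33 and 11 genes, so they are not independent.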

How the data were processed

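The data are CUT&RUN peak lists of 12 libraries of a BRG1-expressing PANC1 line, 2 each for BRG1, SMARCC1, NRF2, H3K4me1, H3K4me3 and H3K27ac. The IgG library was not used here. Per the submitters' processing notes the tools were MACS2 2.2.7.1, Picard 2.23.9, Bowtie2 2.4.1 and SAMtools 1.9, with GRCh38 as the build and no roles given, and whether peaks were called against IgG is not given in the sources used here. Each peak's fold enrichment is the authors' deposited ratio, and its −log10 p and −log10 q are the authors' deposited values, used only as thresholds. No counts are in these lists, so depth is unknown, and a fold is a library's own value.

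Regions, classes, overlaps and shares were computed from these peaks in Python 3.11.15 with NumPy 2.4.6, SciPy 1.17.1 and pandas 2.3.3. Figures were drawn with matplotlib 3.10.9. Peaks that touched were merged, overlap meant at least 1 bp, and a region's fold in a library is its highest peak. Genes were placed with RefSeq tables of GRCh38.p14: 22132 coding starts of 15812 genes, none on chromosome 8, where 237 of the narrow acetylated regions lie, and the ends of 19974 coding genes. Of 414 symbols on 18 gene lists, 331 had a listed start. Intervals are exact binomial (Clopper-Pearson) at 95% and cover counting error over regions only, and the limit for a count of 0 is 3 counts.

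The members, gene lists, motifs and tests were chosen with earlier results of these data known. Named regions are the 10 best-ranked for each mark, the 8 best-ranked sites of each factor, those with several factors, 5 on each side of the width limit, the 5 narrowest and up to 4 genes a list by mean rank of H3K4me3 fold over both libraries. NQO1, TAF10, NFE2L2, ABCC1 and PRDX1 are named outside this rule, and they and the printed promoters were chosen after values were seen. The search by gene ends was added after the data were seen. Libraries were compared by exact two-sided permutation tests with Benjamini-Hochberg adjustment over 3 pairs. The merging, overlap and permutation steps were tested on simulated regions. Alternatives were other widths, peak thresholds, overlaps, joined peaks, summits, peaks of either library and each library left out. The result for 1 marker gene is not reported here.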

Additional observations from a re-analysis of the deposited data

How the results depend on the processing

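The 8366 regions became 899 with mark peaks of −log10 q at least 5 and 4838 where H3K27ac had to cover 50%, and leaving out a library gave 9000 to 9315. The BRG1 share of 0.944% was 3.45% at that q, 6.37% with peaks of either library and 0.0956% with factor peaks of −log10 p at least 5. The SMARCC1 share of 0.645% was 2.56% at that q, 0.909% with 50% cover, 0.747% with mark peaks within 500 bp joined, 2.67% with either library and 0.0120% with factor peaks of −log10 p at least 5. The NRF2 share of 0.287% was 1.47% with either library. The H3K4me1 share of 3.83% was 3.12% under 2000 bp, 6.34% at that q, 4.71% with 50% cover, 4.69% with joined peaks, 7.65% with either library, 0.418% at that p and 2.38% by summits. With each library left out in turn, the shares ran from 0.882% to 5.30% for BRG1, 0.581% to 1.75% for SMARCC1, 0.266% to 1.28% for NRF2 and 3.56% to 5.96% for H3K4me1. When a factor's own library is left out, every peak of the other counts.

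NRF2 minus BRG1, -0.212 points, was 0.292 under 2000 bp, 0.416 with joined peaks and 3.22 with factor peaks of −log10 p at least 5, and it ran from -1.58 to 1.16 with a library left out. SMARCC1 minus BRG1 ran from 18.1 to 19.5 points and SMARCC1 minus NRF2 from 17.7 to 20.4 with a library left out, and both kept their sign under each alternative, 7.18 and 8.07 points being the lowest, at the q threshold. Coding starts within 1000 bp raised 63.9% to 75.9%, and the width-weighted H3K27ac fold was 4.21 in place of 4.29. The labels do not say that replicate numbers pair libraries, and deviations of same-numbered factor libraries had correlations of -0.002, -0.061 and -0.009. With the replicate block, a sign-flip test within same-numbered libraries, the differences were the same 18.8, -0.212 and 19.0 points, with exact p = 0.5, 1 and 0.5, where 0.5 is the smallest possible. In all, 87 of 119 alternative values were counted as unchanged, 25 as moved and 7 as changed in sign, and causes of these moves were not tested. Unchanged meant a region count within a fixed ratio, a share or median fold within the SD of 2 libraries, or a difference of the same sign. Starts within 1000 bp were counted as moved without such a rule. For BRG1 that SD was 2.30 points, more than the share itself, so even its fall to 0.0956% counted as unchanged. Depth, which is unknown, limits every absence of a site.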
